A study of Drosophila melanogaster with 4 samples.

Results

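The circular RNAs described here came from 4 host genes of the translation machinery of the fruit fly Drosophila melanogaster, named Ef2b, Ef1alpha48D, eIF4G and pAbp in the deposited table. A circular RNA (circRNA) is a closed ring that forms by back-splicing, in which the splice donor at an exon's 3' end joins an acceptor lying upstream of it. The circRNAs of these genes were taken by the gene symbol in the table's name column. This gave 48 of the 2563 listed circRNAs, with 23 for Ef2b, 20 for Ef1alpha48D, 3 for eIF4G and 2 for pAbp. The current symbols are eEF2, eEF1alpha1, eIF4G1 and pAbp, and these are used below. The study sequenced ribosome-protected RNA fragments (footprints) from fly heads in 4 libraries, 2 from a low and 2 from a high detergent buffer. The labels' protocols describe a previously published homogenization for heads 1 and 2, and for heads 3 and 4 the lysis of 200 frozen heads in 500 µl of a buffer containing 0.1% Triton X-100. No strain, genotype, sex or age is given in the sources used here. Since head numbers are not tied to detergents in the labels, the columns of counts per library were not used. Read counts below are the authors' totals for all samples combined, which carry no replicate error.

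Translation initiation on most mRNAs begins when eIF4G, a scaffold protein, joins the cap-binding protein eIF4E, the helicase eIF4A and the poly(A)-binding protein pAbp, which covers the tail of the mRNA, so that both ends of the mRNA are held in 1 complex. During elongation, eEF1alpha (the product of eEF1alpha1) brings each charged tRNA to the ribosome, and eEF2 then moves the ribosome along by 1 codon. Elongation factors are needed in every round of elongation and cells generally make them in large amounts.

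eEF2 and eEF1alpha1 had 43 short circRNAs, lying within 1890 and 1909 bases of the genome in that order. Of these 43, 0 matched annotated exon blocks by length and 0 had a footprint read. eIF4G1 had 3 longer circRNAs spread over 8338 bases, of which 2 matched annotated exon blocks by length. These same 2 held all 3 footprint reads listed for circRNAs of the 4 genes. With 2 of 48 circRNAs having a read (4.17%), the 4 genes together were near the 4.76% of all listed circRNAs. pAbp had 2 short circRNAs that did not overlap, with 0 matches to exon blocks and 0 reads. Because circRNAs of a gene share their source and the 4 genes were picked with earlier results of these data known, these contrasts are given as counts and medians with no test.

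By number of listed circRNAs, eEF2 ranked 1 and eEF1alpha1 ranked 3 among the 1223 host genes, whereas eIF4G1 shared rank 161 and pAbp shared rank 282. Scaled to the annotated exon sequence, eEF1alpha1 had 8.12 listed circRNAs per kb of exon (20 over 2464 bases) and eEF2 had 7.53 (23 over 3056 bases). These were ranks 1 and 2 of the 1222 host genes with a gene model, ahead of CG17646 with 6.19 per kb and CG1092 with 4.69. eIF4G1 had 0.457 per kb over 6565 bases of exon and pAbp had 0.465 over 4303 bases. Each of the 48 circRNAs had its own combination of coordinates, and no circRNA of another host gene overlapped the stretches they cover (0 for each of the 4 genes). A second gene, Ef1alpha100E, also encodes eEF1alpha, and the rows analysed here held no circRNA of it. How any reads matching both genes were assigned is not given in the sources used here.

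A span is the genomic distance from a circRNA's first to its second end, any introns included, and by this measure the elongation factors and pAbp lay below eIF4G1. The 23 eEF2 circRNAs spanned 113 to 543 bases with a median of 248, and the 20 of eEF1alpha1 spanned 104 to 505 bases with a median of 258.5. Together the elongation factors had a median span of 255 bases, against 1062 bases for the 2515 circRNAs of all other host genes. The 25th percentile of those other circRNAs was 480 bases, so the elongation factor circRNAs lay mostly among the shortest of the table. The eIF4G1 circRNAs spanned 842, 1579 and 2876 bases, all longer than any from the elongation factors. The pAbp circRNAs spanned 214 and 463 bases, inside the range of the elongation factors.

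**Figure D1:**
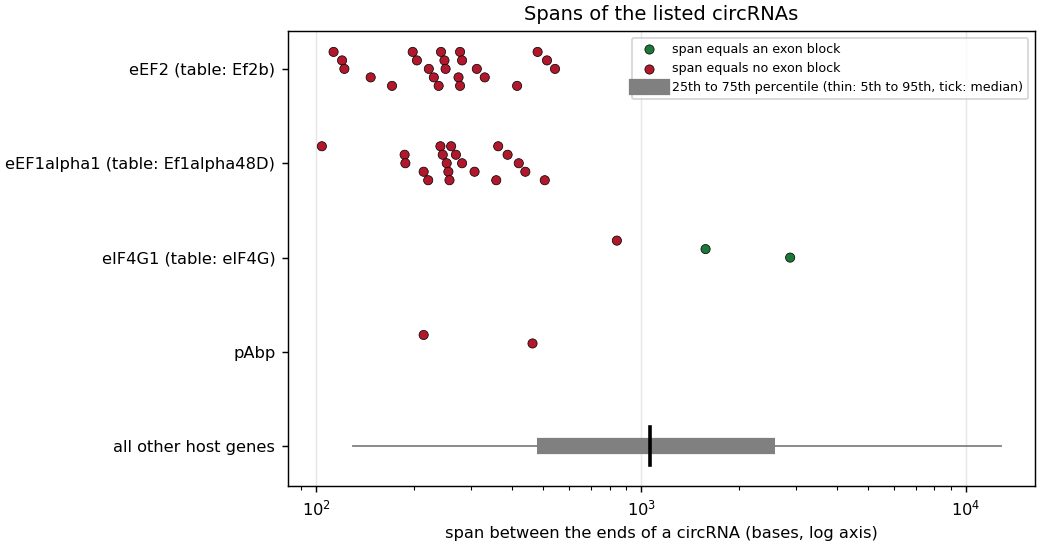
Span of each listed circRNA of the 4 genes in bases on a log axis, with green points for spans equal to an exon block and red points for the others, and the grey bar for the circRNAs of all other host genes. All 43 elongation factor circRNAs and both of pAbp lie at or below 543 bases, while the 3 of eIF4G1 lie at 842 bases and above.

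In a circRNA made by splicing, both ends lie at exon ends, so its span should equal the length of an exon block, meaning the stretch that 1 or more successive exons of a transcript occupy on the genome. Over all listed circRNAs, 76.2% (1954 of 2563) had a span equal to a block of their host gene. For the elongation factors this was 0 of 43 (exact 95% binomial interval 0% to 8.22%), made up of 0 of 23 for eEF2 and 0 of 20 for eEF1alpha1. For eIF4G1 and pAbp it was 2 of 5 (40%, interval 5.27% to 85.3%), made up of 2 of 3 and 0 of 2. Whether the listed circRNAs that equal no block are closed rings was not tested.

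The annotated exons bear on how far such a match was possible. The transcripts of eEF1alpha1 put nearly all of the mRNA in a long last exon of up to 2208 bases, and its 9 block lengths hold only 63, 70 and 110 bases below 1966. All eEF1alpha1 circRNAs, at 104 to 505 bases, were therefore shorter than its long exon, and the closest to a block was the circRNA of 104 bases, which was 6 bases shorter than the block of 110. eEF2 has 25 block lengths, of which 78, 126, 215 and 528 bases fall in the range up to its longest circRNA. The closest eEF2 circRNA spanned 122 bases and was 4 bases shorter than the block of 126. The longest, of 543 bases, was 15 bases longer than the block of 528. For pAbp, with 33 block lengths, the circRNAs of 214 and 463 bases were 29 and 155 bases longer than the nearest blocks.

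The circRNAs of the elongation factors were tightly packed. Those of eEF2 lay on chromosome 2L between 21678182 and 21680071 (dm3), 1890 bases in all, and left uncovered only a gap of 183 bases. On its near side, 2 circRNAs began together at 21678182, and the other 21 formed a continuous run of 1509 bases from 21678563. Those of eEF1alpha1 lay on chromosome 2R between 7781066 and 7782974, 1909 bases in all, in a stretch of 540 bases with 3 circRNAs and, 596 bases further on, a stretch of 773 bases with 17. By the annotation eEF1alpha1 is read in the direction of rising coordinates, so the crowded stretch is on the 3' side of the sparse one. eEF2 is read in the opposite direction, so its crowded run is on the 5' side. These positions were not placed on exons, since the annotation used here is of a later build.

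**Figure D2:**
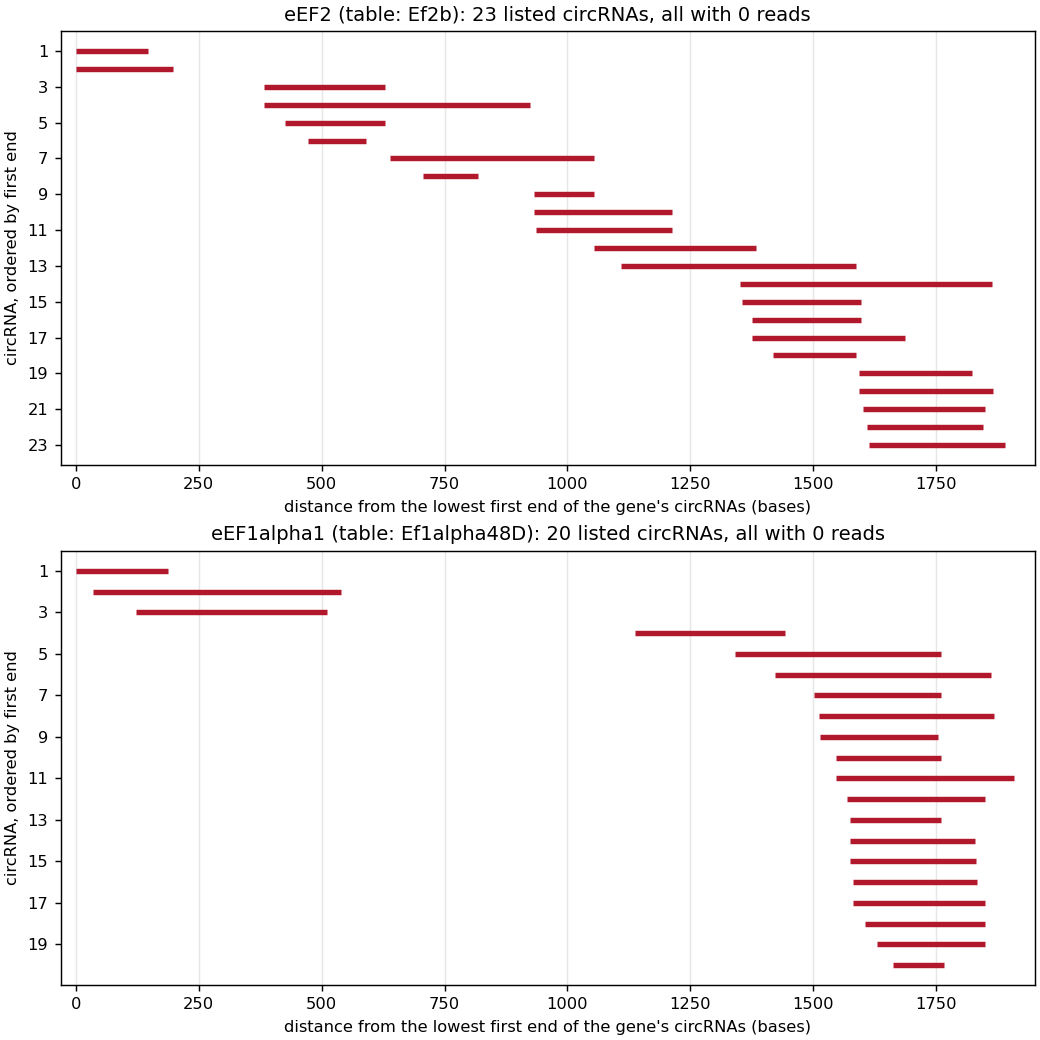
Each listed circRNA of eEF2 (upper panel, 23) and eEF1alpha1 (lower panel, 20) as a bar from its first to its second end, in bases from the lowest first end of that gene, all in red because no span equals an exon block. The eEF2 circRNAs step along the gene, while 17 of the 20 of eEF1alpha1 sit in the right-hand 773 bases.

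The crowding took a different form in the elongation factor genes. Bases are counted here from the lowest first end of each gene's circRNAs. In eEF1alpha1, 16 circRNAs covered the same 93 bases, from base 1662 to 1754, and 125 of the 190 possible combinations of circRNAs overlapped (65.8%). In eEF2 the deepest point had 7 circRNAs, over 73 bases from base 1614 to 1686, and 64 of 253 combinations overlapped (25.3%). The depth of 16 was the highest among the 96 host genes with at least 5 listed circRNAs, and 6 of these had more than 7. The eEF2 circRNAs were thus spread over the gene as partly overlapping neighbours, and those of eEF1alpha1 were mostly stacked on a common core.

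**Figure D3:**
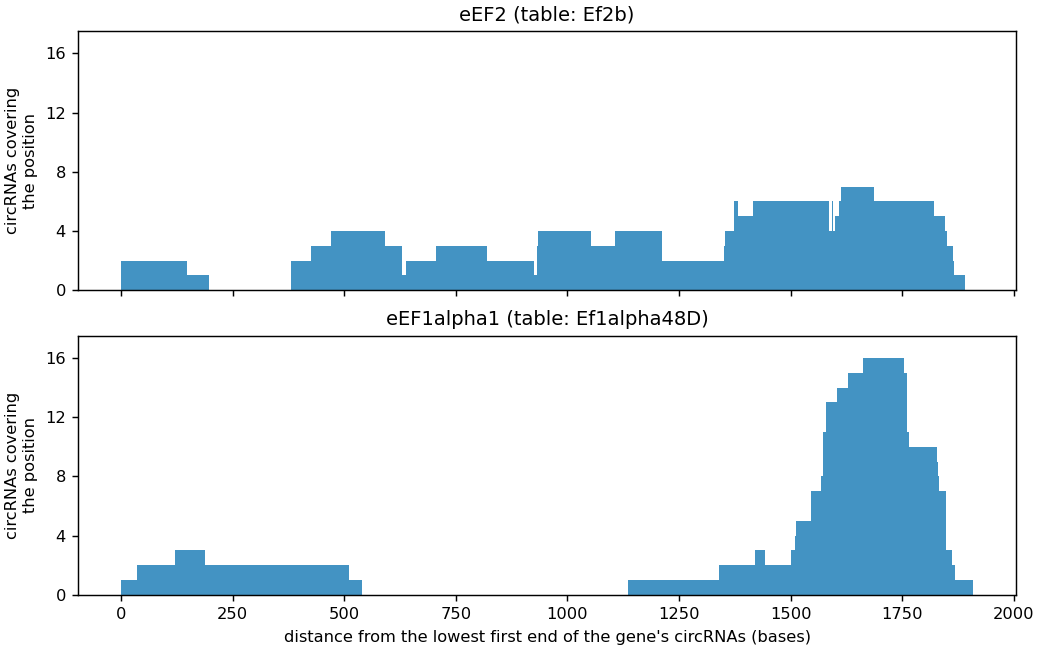
Number of listed circRNAs covering each position of eEF2 (upper panel) and eEF1alpha1 (lower panel), in bases from the lowest first end of that gene. eEF1alpha1 rises to 16 near the right-hand end, and eEF2 stays at 7 or below throughout.

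Within these stretches the ends lay close to each other without being the same. The distance from an end to the nearest different end of the same kind in the same gene had a median of 38 bases in eEF2 and 11 bases in eEF1alpha1. In the 96 host genes with at least 5 circRNAs the median of this measure was 2408 bases. The measure falls as more ends lie in a shorter stretch, so it is not independent of the packing described above. Only CG16777 (10 bases, 6 circRNAs) was below eEF1alpha1, and it was chosen after its value was seen. Its 6 circRNAs have 1 second end in common, so the value rests on first ends alone. CG16777 now belongs to the gene ps, and 8 more circRNAs are listed under the name ps, at 1245 bases. For eIF4G1 the same measure was 5093.5 bases and for pAbp 544.5 bases, each resting on few ends. In eEF1alpha1 the second ends, on the 3' side, were closer (median 7 bases) than the first ends (22 bases), and in eEF2 the first ends, also on the 3' side, were closer (20 bases) than the second ends (38 bases).

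Some circRNAs of the elongation factors had a near twin. Both ends lay within 20 bases of another circRNA of the same gene for 7 of 23 in eEF2 (30.4%) and 7 of 20 in eEF1alpha1 (35%), against 4.21% of all listed circRNAs (108 of 2563) and 0 of 5 in eIF4G1 and pAbp. A gene with a single circRNA cannot have a twin, and in the 96 host genes with at least 5 the share was 7.47% (56 of 750). Shares at least as high as in eEF2 were found in 6 other genes of these 96, all with fewer circRNAs. They were kmr (listed as CG34383) with 4 of 5, the part of ps listed as CG16777 with 4 of 6, and eIF3b with 4 of 9. CG34417, rhea and spri had 2 of 6 each. The circRNAs listed under the name ps had 2 of 8. The largest such group in eEF1alpha1 held 5 circRNAs, with first ends from 7782634 to 7782646 and second ends from 7782893 to 7782914. These 5 spanned 252 to 281 bases and differed by at most 12 bases at the first end and 21 at the second. The largest in eEF2 held 3, with first ends from 21679774 to 21679790 and second ends from 21680027 to 21680047. Allowing 50 bases, these groups grew to 7 circRNAs in eEF1alpha1 and 5 in eEF2.

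Some ends were shared exactly. In eEF2, 16 of 23 circRNAs had an end in common with another (69.6%), through 5 first ends and 5 second ends that each served 2 circRNAs. In eEF1alpha1 it was 12 of 20 (60%), and here the shared ends were fuller. The second ends 7782825 and 7782914 served 4 circRNAs each, and the first end 7782639 served 3. The 4 circRNAs ending at 7782914 began between 7782634 and 7782694, and the 4 ending at 7782825 began between 7782406 and 7782639. In eEF2 a further feature was that 2 circRNAs ended at 21679234 and another began at the next base, 21679235.

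Exact sharing alone did not set the elongation factors apart. Among the 5 other host genes with most listed circRNAs, CG17646 (an ABC transporter gene) had a shared end in 18 of 22 (81.8%), pan (a Wnt pathway transcription factor) in 18 of 18, mbl (a splicing regulator) in 15 of 17 (88.2%), slo (a potassium channel) in 17 of 17 and nolo (CG31619) in 14 of 15 (93.3%). These genes had 0 circRNAs with both ends within 20 bases of another. Their spans equalled an exon block in 15 of 22 for CG17646, 16 of 18 for pan, 7 of 17 for mbl, 17 of 17 for slo and 13 of 15 for nolo. Their median distances to the nearest different end were 57 bases for CG17646, 1500 for pan, 7252 for mbl, 2242 for slo and 1938 for nolo. CG17646 came nearest to the elongation factors in circRNAs per kb of exon and in the distance between ends, with its 22 circRNAs spread over 7242 bases.

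**Figure D4:**
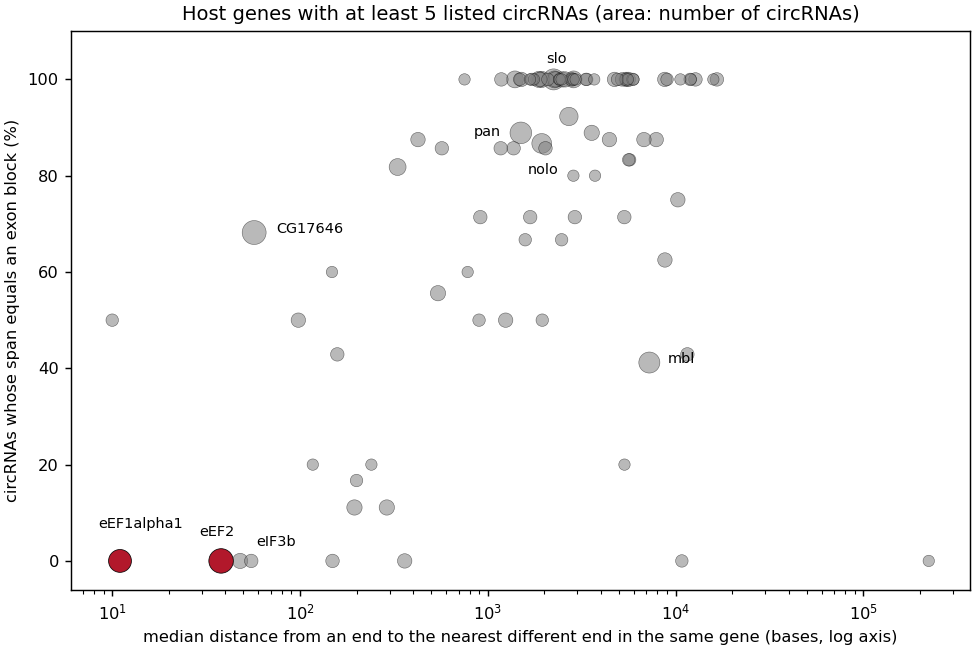
Host genes with at least 5 listed circRNAs (96 genes), plotted by the median distance from an end to the nearest different end in the same gene (bases, log axis) and by the share of circRNAs whose span equals an exon block (percent), with point area for the number of circRNAs. eEF2 and eEF1alpha1 (red) lie at 38 and 11 bases with 0% at exon blocks, next to eIF3b at 48 bases and CG1092 at 55 bases, also with 0%, whereas pan, slo and nolo are at 86.7% and above and CG17646 is at 57 bases and 68.2%.

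Footprint reads were absent from the listed circRNAs of the elongation factors. Footprints on the mRNAs of these genes were not examined here. All 23 circRNAs of eEF2 and all 20 of eEF1alpha1 had 0 reads. At 0 each could still hold up to 1.30% of the table's 230 reads. This limit is a fixed floor of 3 reads for counting error only, not an exact Poisson interval. Of all listed circRNAs 4.76% had at least 1 read, and for 43 circRNAs the exact interval of 0% to 8.22% includes that share. That interval treats the 43 as independent, although they come from 2 genes and include near twins, so it may be too narrow. The share with a read was lower for circRNAs as short as these. Of the 741 circRNAs of any gene with a span of at most 543 bases, which include these 43, 9 had a read (1.21%). Among the 563 circRNAs of other genes that equal no exon block, 7 had a read (1.24%, 0.501% to 2.54%). No difference between the elongation factors and circRNAs of like length or like ends could be resolved at this depth, and none was tested.

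The circRNAs of eIF4G1, on chromosome 4, held the 3 reads listed for circRNAs of the 4 genes. That is 1.30% of all 230 (exact binomial interval 0.270% to 3.76%). The circRNA from 945709 to 947287 had 2 reads (exact 95% Poisson interval 0.242 to 7.22). Its span of 1579 bases equalled a block of 4 exons of 56, 112, 181 and 651 bases in the order of rising coordinates, against the direction of transcription. These are exons 4 to 7 of 16 in some transcripts and 5 to 8 of 17 in another. The circRNA from 938950 to 941825 had 1 read (0.0253 to 5.57). Its span of 2876 bases equalled a block of 3 exons of 158, 241 and 2297 bases in the same order, exons 8 to 10 of 16 or 9 to 11 of 17. The intervals overlap, so the order of these circRNAs is not resolved.

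Both eIF4G1 circRNAs with reads lie inside the coding sequence and hold neither the annotated start codon nor the stop codon. With introns removed the first would be 1000 bases long and the second 2696 bases. In the table they are 3883 bases apart, and the matching blocks in the later annotation are also 3883 bases apart, so the spacing of both matches is the same in the table and in the annotation. The third eIF4G1 circRNA, from 940984 to 941825, had 0 reads and its span of 842 bases equalled no block, the nearest being 866 bases. It has the second end of the circRNA with 1 read, at 941825, which in the matching block is the 5' end of the exon of 2297 bases. Counted from that end, 842 bases stop 1455 bases short of the far end of this exon, so its other end falls inside the exon.

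**Figure D5:**
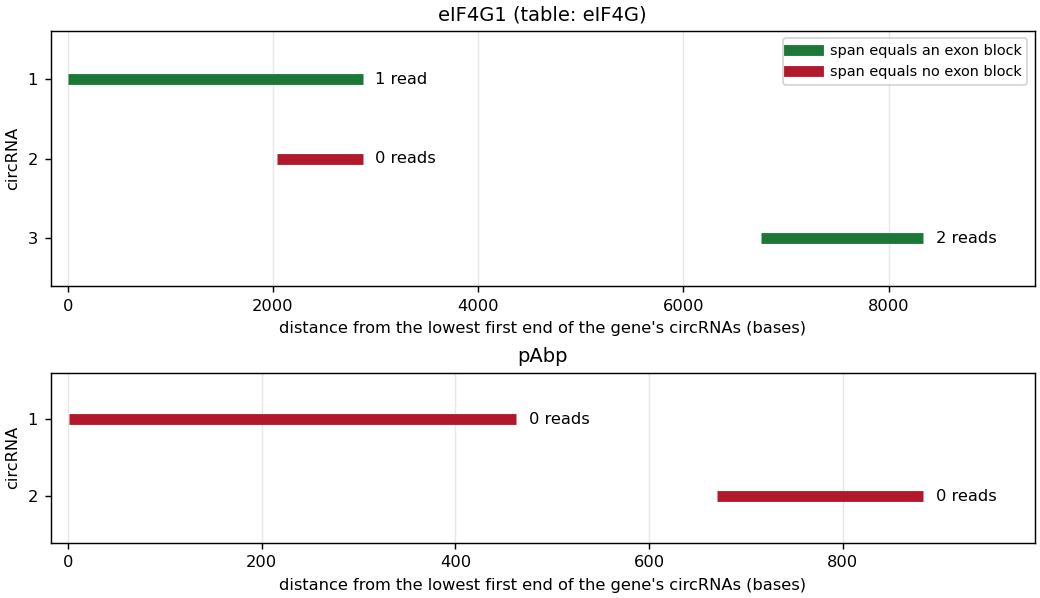
Each listed circRNA of eIF4G1 (upper panel, 3) and pAbp (lower panel, 2) as a bar from its first to its second end, in bases from the lowest first end of that gene, with its reads over all samples and in green where the span equals an exon block. The green eIF4G1 bars carry 1 and 2 reads, and each red bar carries 0.

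pAbp had 0 reads on both of its circRNAs, which lie on chromosome 2R from 14032847 to 14033309 and from 14033516 to 14033729. They were separated by 206 bases and shared no end. The circRNAs lay in the same part of the gene, within 883 bases, but did not overlap, unlike most of those in eEF1alpha1. With 2 circRNAs, pAbp gives little ground for a comparison of shares.

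Of the other initiation genes listed, 8 had circRNAs, 21 in all, of which 4 equalled an exon block (19.0%, 5.45% to 41.9%) and 0 had a read. The 4 were both circRNAs of eIF4B, which aids the helicase eIF4A and whose circRNAs spanned 2981 and 13431 bases, and both of eIF5B, which joins the ribosomal subunits and whose circRNAs spanned 2103 and 4267 bases. The 17 others came from eIF3b, eIF3c, eIF3d1 and eIF3e (subunits of the scaffold complex eIF3), eIF4A and eEF5 (listed as eIF-5A). By its listed name eEF5 was counted here, although its current name is that of an elongation factor. None of these had a span above 417 bases. The exact upper limit for 0 of 21 with a read is 16.1%, which includes the 4.76% of all listed circRNAs.

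eIF3b (listed as eIF3-S9), on chromosome 2R, was the richest of them with 9 circRNAs, 0 of which equalled an exon block. They spanned 103 to 330 bases with a median of 124, shorter than the medians of both elongation factors. Of the 9, 4 ended at 13426592 and began within 19 bases of each other, from 13426471 to 13426490, and these 4 were also the ones with both ends within 20 bases of another. Its median distance to the nearest different end was 48 bases, next to that of eEF2.

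Of the other elongation and release factor genes, eEF1gamma, a subunit of the exchange factor that reloads eEF1alpha, had 4 circRNAs of 117 to 314 bases, with 0 at exon blocks and 0 reads. eRF1, which recognises stop codons, had 2 circRNAs of 265 and 2789 bases, both equal to exon blocks, with 0 reads. Ribosomal protein genes had 36 circRNAs from 18 genes, of which 4 equalled an exon block (11.1%, 3.11% to 26.1%) and 0 had a read. Their median span was 274 bases, but no gene had more than 4 circRNAs, and 2 of the 36 had both ends within 20 bases of another (5.56%). Those 2 were both circRNAs of RpL21. Genes with fewer circRNAs offer fewer pairs that could be near twins, so this share is no contrast with the elongation factors. The exact upper limits for 0 of 6 elongation and release factor circRNAs and 0 of 36 ribosomal protein circRNAs with a read are 45.9% and 9.74%, which again include 4.76%.

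Among the 96 host genes with at least 5 circRNAs, 8 had 0 at exon blocks. Besides eEF2, eEF1alpha1 and eIF3b these were LanA (8), CG1092 (7), sesB (7), msi (6) and na (5), of which msi alone had a footprint read (2 reads). The coordinates of the 5 listed as na spread over 15360770 bases, so they cannot be taken as circRNAs of a single gene. In 45 of the 96 every circRNA equalled an exon block. eEF2 and eEF1alpha1 alone supplied 43 of the 609 circRNAs of the whole table that equal no exon block (7.06%).

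Divisibility by 3 was examined because a ring with no intron and a length divisible by 3 keeps the reading frame across the junction. The span was divisible by 3 in 15 of the 43 elongation factor circRNAs (34.9%), with 11 of 23 for eEF2 and 4 of 20 for eEF1alpha1, and in 36.6% of the whole table. Since spans include any introns, these shares do not give how many rings keep the frame. None of the 5 spans of eIF4G1 and pAbp was divisible by 3, nor were the spliced lengths of 1000 and 2696 bases.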

How the data were processed

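The authors deposited a table of circRNAs with chromosome, 2 coordinates, a name and read counts, from which the whole-number count over all samples was used as deposited. The submitters' processing notes name cutadapt 1.9.1 and dm3 as the genome build, and per the file headers ribosomal RNA reads were removed. The aligner, circRNA caller, read minimum and criterion for listing a circRNA were not given in the sources used here. A read is assumed to be a footprint spanning the back-splice junction, a point on which the table is silent. The 4 columns of counts per library were left out, since the labels do not tie head numbers to detergents, so edgeR was not run and no comparison of high with low detergent was made. The total was 230 reads on 122 of 2563 circRNAs.

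Positions are in dm3 as the table gives them, with the first coordinate raised by 1 to count from 1. If the table counts differently, they shift by 1 base. Exons are those of Ensembl release 115 on BDGP6, and no coordinate was converted. The span was compared with exon block lengths of the gene of the accession (matched for 2530 circRNAs) or else of the symbol. Symbols came from NCBI's gene table for the later build. A block whose length differs between builds cannot match. After shifting every span by 1 to 11 bases in either direction, 28 to 63 (1.09% to 2.46%) matched. Host genes are as the table's symbol, or the current symbol for 64 names without one. No sequence is shown, since no genome of build dm3 was used here.

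Every circRNA of the 4 genes is accounted for. Those described singly are the shortest, the longest, those nearest to or equal to an exon block, those with reads, and those with shared or neighbouring ends, the last chosen after their values were seen. The member genes and gene lists were chosen with earlier results of these data known. Intervals are 95%, exact binomial (Clopper-Pearson) for shares and exact Poisson for counts, and cover counting error only. They treat circRNAs as independent, which those of the same gene are not. The block search was run on blocks drawn from the same annotation, and the neighbour search on planted pairs. The former cannot show how well spans of the earlier build match. Python 3.11.15, pandas 2.3.3, numpy 2.4.6 and scipy 1.17.1 were used.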

Additional observations from a re-analysis of the deposited data

How the results depend on the processing

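Of the alternatives tried, those that take subsets of a count of 0 or of circRNAs without a block could not change the elongation factor values of 0 blocks, 0 reads and 255 bases, and say nothing about their stability. The number of circRNAs per gene was the same by current symbol and by distinct coordinates. Allowing a difference of up to 5 bases, 1 of the 43 elongation factor circRNAs equalled an exon block in place of 0, the eEF2 circRNA of 122 bases. With the gene model taken from the symbol alone, 0 circRNAs of eIF4G1 and pAbp equalled a block in place of 2, where the symbol eIF4G is carried by 2 genes, eIF4G1 and eIF4G2, and was left unassigned. The median span of the 5 circRNAs of eIF4G1 and pAbp, 842 bases, was 2227.5 bases for the 2 at exon blocks and 463 bases for the others. With at least 2 reads, 1 circRNA of eIF4G1 counted in place of 2. circRNAs with both ends close to another numbered 2 in eEF2 and 2 in eEF1alpha1 within 5 bases, 13 and 13 within 50 bases, and 16 and 17 within 100 bases, against 1.76%, 6.09% and 7.96% of the whole table. Dropping, in coordinate order, each circRNA with both ends within 20 bases of 1 already kept left 35 elongation factor circRNAs. No paired analysis was possible because the labels do not tie the columns per library to groups and replicates, and the alternatives of the detergent comparison, leaving out a library included, were not run. With 3 reads on the circRNAs of the 4 genes, depth leaves differences in footprints between these circRNAs unresolved.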
